A study of Mus musculus with 2 samples.

Results

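The genes described here are the colony-stimulating factors and their receptors: the ligands Csf1, Il34, Csf2 and Csf3 and the receptor chains Csf1r, Csf2ra, Csf2rb and Csf3r. They were taken by symbol, 8 of the 32285 genes in the count matrices. Colony-stimulating factor 1 (CSF1) and interleukin-34 are different proteins that bind the same receptor, CSF1R, a tyrosine kinase on which monocytes and macrophages depend for survival and growth. Granulocyte-macrophage colony-stimulating factor (GM-CSF, encoded by Csf2) binds an alpha chain, Csf2ra, and signals with the common beta chain Csf2rb, which the receptors for interleukin-3 and interleukin-5 also use. Granulocyte colony-stimulating factor (G-CSF, encoded by Csf3) drives the production and release of neutrophils through Csf3r, and in joints these cytokines are best known as stromal and leukocyte signals that sustain macrophages and neutrophils during inflammation.

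The cells came from the temporomandibular joint (TMJ, the jaw joint) of female C57BL/6 mice aged 8 to 10 weeks, and were profiled as 2 droplet single-cell RNA-seq libraries. One library was from wild-type (WT) mice and the other from Prox1 mutant mice, which carry 1 functional copy of Prox1 in every cell type (Prox1+/-). Prox1 is the transcription factor that specifies lymphatic endothelium, and the study used the mutant as a model of poor lymphatic function. Both groups had received complete Freund's adjuvant (CFA) in the joint to induce arthritis, so no joint without CFA was compared here. With 1 library per condition there was no replicate check: no test between conditions was possible, and every interval given below is a 95% interval that covers counting error only.

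After filtering, 4352 WT cells and 5757 mutant cells remained, with a median of 6997 and 4848 unique molecular identifiers (UMIs, counted transcripts) per cell. The targeted gene was read first: Prox1 stood at 11.6 CPM (UMIs of the gene per 1000000 UMIs of the class; 10.7 to 12.6) in the WT library and 5.80 CPM (5.18 to 6.47) in the mutant library. These values cover all kept cells. Within endothelial cells alone Prox1 was 39.0 (34.7 to 43.7) CPM in the WT library and 21.7 (18.0 to 26.0) CPM in the mutant library. The libraries shared 10 cell barcodes. Cell classes were rebuilt by clustering without the 8 genes, and each class name used here stands for cells like that type, named from marker lists, not for the study's own annotation. Of 43 clusters 31 received a name, and the cells left unnamed were 6.50% of the WT cells but 34.3% of the mutant cells, so shares over all cells compare unlike fractions of the libraries. Barcodes with too few genes to be kept held 13.4 and 11.2 CPM of Csf1, 4.58 and 7.91 CPM of Csf1r and 18.0 and 22.2 CPM of Csf3r in the WT and mutant libraries. Erythroid cells, which should lack these receptors, are used below as the background.

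Csf1 (chr3:107741048-107760469, minus strand, GRCm38) was read in many stromal and myeloid classes. The whole WT library held 2185 UMIs, or 45.2 (43.3 to 47.1) CPM, and the mutant library 2581 UMIs, or 47.5 (45.7 to 49.4) CPM. Fibroblasts gave the largest share of these transcripts among the named classes, 30.3% (28.4 to 32.3) in the WT library and 23.1% (21.4 to 24.7) in the mutant library. Neutrophils came next with 19.8% and 17.2%, although they were 7.17% and 5.73% of the cells. Endothelial cells added 15.2% and 11.7%, and macrophages, the main cells that carry the receptor, 12.04% and 10.4%.

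Among stromal cells, Csf1 stood at 84.2 (77.9 to 90.9) CPM in WT fibroblasts and 102 (93.8 to 110.3) CPM in mutant fibroblasts, a log2 ratio of mutant over WT of 0.27 (0.11 to 0.44). A Csf1 UMI was found in 278 of 535 WT and 183 of 359 mutant fibroblasts. Once every cell was thinned to 2000 UMIs, the share was 16.4% and 16.9%, against 0.671% and 0.323% of erythroid cells. Cells with fewer UMIs were left out of the thinned shares, which rest on 524 WT and 319 mutant fibroblasts, 265 and 293 neutrophils, 499 and 512 macrophages and 298 and 619 erythroid cells. The fibroblast subtypes were not alike. Fibroblasts marked by Pi16, a gene of adventitial fibroblasts, held 103 and 129 CPM and the other fibroblasts 98.9 and 112 CPM, which did not differ from each other beyond counting error. The leading genes of the Pi16 cluster also included Prg4 and Has1, which were on the marker list of synovial lining fibroblasts. Tenocytes, the cells of tendon, held 41.1 and 29.0 CPM, so that Pi16 fibroblasts were 2.51 (2.01 to 3.15) times the tenocytes in the WT library and 4.46 (3.26 to 6.25) times in the mutant library.

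Vessel-associated cells carried less Csf1. Endothelial cells stood at 43.8 (39.3 to 48.8) CPM in the WT library and 55.0 (48.9 to 61.6) CPM in the mutant library (log2 ratio 0.33, 0.097 to 0.56). Within them the capillary cells led, at 53.9 and 72.9 CPM, and were 1.49 (1.15 to 1.94) and 1.48 (1.12 to 1.97) times the venous cells. Arterial and venous cells did not differ beyond counting error in either library. Mural cells, the smooth muscle cells and pericytes around vessels, went the other way between libraries, from 59.9 (50.2 to 71.0) to 40.5 (31.4 to 51.3) CPM (log2 ratio -0.57, -1.01 to -0.13). In Schwann cells, which wrap nerve fibres, Csf1 was 20.3 (14.4 to 27.9) and 27.1 (16.8 to 41.5) CPM, and the intervals overlapped.

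**Figure D1:**
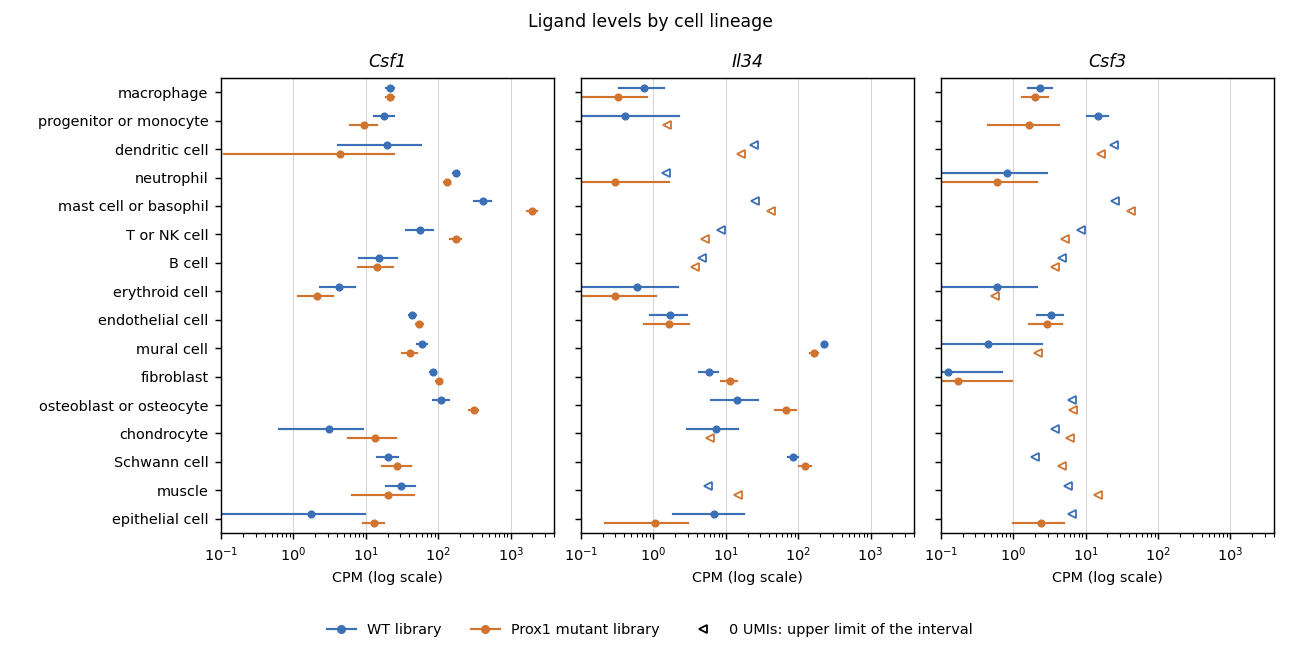
Csf1, Il34 and Csf3 by cell lineage in CPM on a log axis, with 95% counting intervals, for the WT and the Prox1 mutant library, each point 1 lineage of 1 library. Csf1 spreads over many lineages and is highest in the basophil cluster, at 413 and 1965 CPM, while Il34 is highest in mural cells, at 230.2 and 165 CPM.

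In the plot of ligands by lineage, leukocytes lay both above and below the fibroblasts for Csf1. The highest level was in a small cluster led by Prss34, Mcpt8, Cpa3 and Fcer1a, genes of basophils and mast cells, with 12 WT and 17 mutant cells. There Csf1 was 413 (315 to 532) CPM in the WT library and 1965 (1681 to 2284) CPM in the mutant library (log2 ratio 2.25, 1.82 to 2.70). Single cells weighed heavily in these values: 1 WT cell held 27 of the 60 UMIs and 1 mutant cell 68 of 170, and without these cells the levels were 243 and 1301 CPM. Csf1 was nevertheless found in 9 of 12 WT and 14 of 17 mutant cells of this cluster.

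Neutrophils gave the next largest share after fibroblasts. Over the whole lineage Csf1 stood at 175 (159 to 193) CPM in the WT library and 131 (119 to 144) CPM in the mutant library, a log2 ratio of -0.42 (-0.62 to -0.23). A UMI was found in 111 of 312 WT and 91 of 330 mutant neutrophils, and after thinning to 2000 UMIs in 21.9% and 15.4%. Relative to fibroblasts, neutrophils held 2.08 (1.84 to 2.35) times as much in the WT library and 1.29 (1.13 to 1.46) times in the mutant library. The order in the mutant library was not stable: neutrophils were below fibroblasts (log2 ratio -0.11) when cells needed 1000 genes and under 5% mitochondrial UMIs, and also (log2 ratio -0.063) when the libraries were clustered without integration.

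The neutrophil level came mostly from a single state. The lineage held 3 clusters: immature cells led by the granule genes Camp, Ngp and Lcn2, cells led by Retnlg, Cxcr2 and Mmp8, and cells led by Il1f9, Hcar2 and Acod1. In the Il1f9-led cells Csf1 was 781 (694 to 876) CPM in the WT library and 1041 (939 to 1151) CPM in the mutant library, with a UMI in 77 of 126 and 63 of 100 cells. The Retnlg-led cells held 158 (127 to 194) and 50.7 (37.3 to 67.4) CPM, and 1 WT cell with 40 UMIs accounted for much of the first value, which was 96.0 CPM without it. The immature cells were lowest, at 33.6 (25.0 to 44.2) and 8.12 (4.73 to 12.998) CPM. The Il1f9-led cells therefore stood at 4.95 (3.90 to 6.34) times the Retnlg-led cells in the WT library and 20.5 (15.1 to 28.4) times in the mutant library. Between libraries the clusters did not move together: the log2 ratio was 0.42 (0.19 to 0.64) in the Il1f9-led cells, -1.64 (-2.18 to -1.11) in the Retnlg-led cells and -2.05 (-2.93 to -1.23) in the immature cells.

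Several measurements bear on whether these Csf1 transcripts belonged to neutrophils. Among Il1f9-led cells with Csf1, 68 of 77 WT and 57 of 63 mutant cells also had UMIs of at least 3 neutrophil markers. At least 3 UMIs of the C1q genes that mark macrophages were in 4 and 1 of them. Of the cells without Csf1, 42 of 49 and 33 of 37 had the neutrophil markers, from which the cluster had been named. S100a8 was 9803 and 11952 CPM here against 64725 and 79876 CPM in the Retnlg-led cells, and C1qa 123 and 98.9 against 46.8 and 31.3 CPM. Whether the transcripts belonged to neutrophils was not tested. Csf1 and Csf3r were read in the same cell in 67 of 126 and 55 of 100 Il1f9-led cells. The cluster held 2 doublet calls in the WT and 4 in the mutant library. Its cells were shallow, with a median of 2642 and 3315.5 UMIs, and 64 and 57 of them had at least 1000 genes.

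**Figure D2:**
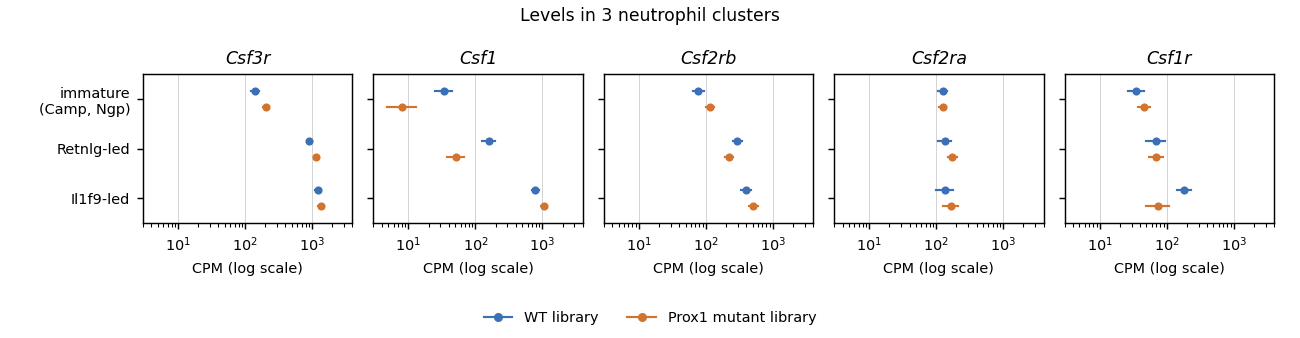
Csf1, Csf1r, Csf2ra, Csf2rb and Csf3r in the 3 neutrophil clusters, in CPM with 95% counting intervals, for the WT and the Prox1 mutant library. Csf1 and Csf3r are lowest in the immature cluster and highest in the Il1f9-led cluster in both libraries, with Csf1 at 33.6 and 781 CPM in the WT library, while Csf2ra runs from 125 to 134 CPM in the WT and from 126 to 174 CPM in the mutant library.

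Bone-lining cells and lymphocytes gave smaller numbers of Csf1 transcripts. The osteoblast or osteocyte cluster, 28 cells in each library, went from 109 (83.4 to 140.0) to 309 (264 to 359) CPM (log2 ratio 1.504, 1.07 to 1.95). In it 4 WT cells and 3 mutant cells held 50% of the UMIs, and the log2 ratio ran from 0.91 to 1.93 over the alternatives. T or NK cells went from 56.9 (36.4 to 84.6) to 175 (146 to 209) CPM (log2 ratio 1.62, 0.99 to 2.32), but 1 of 48 WT cells and 3 of 89 mutant cells held 50% of the UMIs. With every cell weighted equally the log2 ratio was 0.53, which falls short of 1.5-fold, and without the cell with most UMIs in each library it was 2.68. The summed level of the neutrophil markers in that cluster was 6375 and 5026 CPM, and its part in the Csf1 value was not tested. Macrophages as a whole held 21.5 (19.02 to 24.3) and 21.6 (19.1 to 24.4) CPM. Inside the lineage, inflammatory macrophages went from 22.98 (19.8 to 26.5) to 12.3 (9.71 to 15.4) CPM and the other macrophages from 18.5 (14.5 to 23.3) to 31.2 (26.9 to 36.0) CPM, of which 1 mutant cell gave 44 of 191 UMIs.

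Among named lineages with at least 10 Csf1 UMIs in the WT library, the order of level ran from the basophil cluster through neutrophils, osteoblasts, fibroblasts, mural cells, T or NK cells, endothelial cells, muscle satellite cells, macrophages, Schwann cells and the progenitor or monocyte class to B cells, with erythroid cells last at 4.20 CPM. Neighbours in this order whose intervals did not overlap were the basophil cluster and neutrophils, neutrophils and osteoblasts, fibroblasts and mural cells, and B cells and erythroid cells.

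Il34 (chr8:110741829-110805924, minus strand), the second ligand of CSF1R, was much more restricted. The WT library held 771 UMIs, 15.9 (14.8 to 17.1) CPM, and the mutant library 574 UMIs, 10.6 (9.72 to 11.5) CPM. Mural cells gave 66.3% (62.8 to 69.6) of the WT and 48.3% (44.1 to 52.4) of the mutant transcripts while they were 4.96% and 2.15% of the cells. Schwann cells gave 20.8% and 16.9%, and fibroblasts 5.97% and 11.5%. Macrophages, endothelial cells and erythroid cells were all under 2 CPM.

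In mural cells Il34 stood at 230.2 (211 to 251) CPM in the WT library and 165 (146 to 186) CPM in the mutant library (log2 ratio -0.48, -0.70 to -0.27), with a UMI in 137 of 216 and 78 of 124 cells. Pericytes, the mural cells of capillaries, were the highest class of all, at 465 (411 to 524) and 319.8 (263 to 386) CPM. Smooth muscle cells held 148 (129.8 to 168) and 125 (107 to 146) CPM, so pericytes were 3.15 (2.63 to 3.76) and 2.55 (1.98 to 3.26) times the smooth muscle cells. Schwann cells moved in the other direction, from 85.6 (72.9 to 99.9) to 125 (102 to 153) CPM (log2 ratio 0.55, 0.17 to 0.92). Myelinating Schwann cells were the higher of their subtypes, at 109 (91.5 to 129.5) and 135 (109 to 166) CPM, against 41.4 (27.3 to 60.2) and 60.2 (22.1 to 131) CPM in non-myelinating cells. Mural cells were 2.69 (2.25 to 3.23) times the Schwann cells in the WT library and 1.32 (1.04 to 1.68) times in the mutant library.

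Fibroblasts held little Il34, 5.84 (4.28 to 7.79) and 11.3 (8.73 to 14.4) CPM, but the mutant value was the higher (log2 ratio 0.95, 0.39 to 1.53). It was also the higher in Pi16 fibroblasts (4.02 and 10.7 CPM) and in tenocytes (7.28 and 16.2 CPM). The remaining fibroblast class went the other way, on few UMIs. Osteoblasts or osteocytes held 14.3 and 67.2 CPM, and without the mutant cell with 17 UMIs the second value was 37.6 CPM. Summed over each lineage, both CSF1R ligands were thus higher in mutant than in WT fibroblasts and lower in mutant than in WT mural cells. The fibroblast classes did not all follow. Csf1 read lower in mutant than in WT tenocytes, and Il34 in the remaining fibroblast class. The cause was not tested.

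GM-CSF and G-CSF transcripts were scarce. Csf2 (chr11:54247271-54249667, minus strand) gave 2 UMIs in each library, 0.0414 (0.00501 to 0.149) and 0.0368 (0.00446 to 0.133) CPM, so no source could be assigned at this depth. Csf3 (chr11:98701263-98703629, plus strand) gave 111 UMIs in 42 WT cells and 88 UMIs in 50 mutant cells. In venous endothelium it stood at 8.75 (5.55 to 13.1) and 8.59 (4.81 to 14.2) CPM, from 11 of 165 and 4 of 96 cells. In WT monocytes Csf3 reached 44.2 (30.6 to 61.8) CPM, but 1 cell held 18 of the 34 UMIs and the level was 21.1 CPM without it, against 6.25 (1.29 to 18.3) CPM in mutant monocytes. Macrophages held 2.38 (1.59 to 3.41) and 2.02 (1.31 to 2.98) CPM, and neutrophils had 2 UMIs in each library.

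Csf1r (chr18:61100598-61132149, plus strand), the receptor for CSF1 and interleukin-34, marked the macrophage lineage. Macrophages held 425 (414 to 437) CPM in the WT library and 473 (461 to 485) CPM in the mutant library, and gave 78.0% and 70.8% of all its transcripts. A UMI was found in 488 of 509 WT and 506 of 548 mutant macrophages, and after thinning in 58.3% and 59.8%, against 0.671% and 0.646% of erythroid cells. The progenitor or monocyte class followed at 168 (152 to 185) and 194 (177 to 212) CPM and neutrophils at 65.2 (55.5 to 76.1) and 55.8 (48.2 to 64.4) CPM. The macrophage level was 2.53 (2.29 to 2.81) and 2.44 (2.22 to 2.68) times that of progenitors or monocytes.

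The log2 ratio of mutant over WT for Csf1r in macrophages was 0.15 (0.098 to 0.21), under the 1.5-fold change used here to call a gene past the fold. In this lineage 25.9% of all genes tested were past the fold, and the median log2 ratio over all genes was 0.22. Relative to that median the Csf1r ratio was -0.066, so its direction depends on the scaling. Among macrophage states, the interferon macrophages, marked by genes such as Cxcl9, held 577 (546 to 609) and 559 (534 to 585) CPM and resident macrophages 504 (459.8 to 552) and 448 (418 to 479.6) CPM. Inflammatory macrophages held 377 (364 to 391) and 453 (436 to 469.8) CPM, below both other states in the WT library but level with the resident cells in the mutant library. In the same clustering monocytes stood at 265 (230.1 to 304) and 248 (205 to 296) CPM, and myeloid progenitors at 112 (95.7 to 130.4) and 160.3 (140.3 to 182) CPM. The monocytes were 62 WT and 35 mutant cells and the progenitors 61 and 62. A further state, named dendritic and led by Ctnnd2, Dpp4 and Cd209a, had 13 and 51 cells. Values of the progenitor or monocyte class can therefore hold a shift in the mix of these states. The part of that shift was not tested.

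Within neutrophils Csf1r was lowest in the immature cells, at 34.9 and 46.3 CPM. The Il1f9-led cells, which held most of the neutrophil Csf1, carried 182 (142 to 231) CPM of the receptor in the WT library and 74.2 (48.9 to 108) CPM in the mutant library (log2 ratio -1.30, -2.00 to -0.64), and the Retnlg-led cells 69.3 and 70.1 CPM. Csf1 and Csf1r were read together in 16 of 126 WT and 16 of 100 mutant Il1f9-led cells. In macrophages, Csf1 itself was read in 78 of 509 WT and 69 of 548 mutant cells, and each of those cells also held Csf1r.

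**Figure D3:**
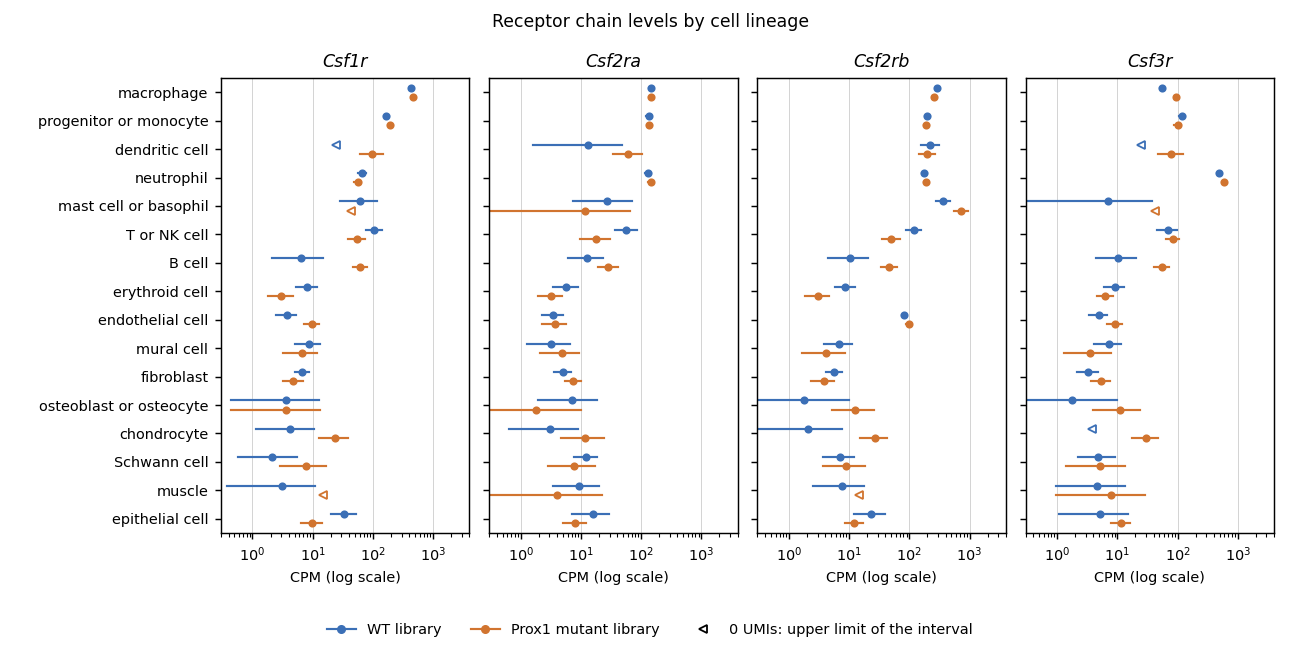
The receptor chains Csf1r, Csf2ra, Csf2rb and Csf3r by cell lineage in CPM on a log axis, with 95% counting intervals, for the WT and the Prox1 mutant library. Csf1r peaks in macrophages at 425 and 473 CPM and Csf3r in neutrophils at 482 and 581 CPM, whereas Csf2ra is level across macrophages, neutrophils and progenitors.

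**Figure D4:**
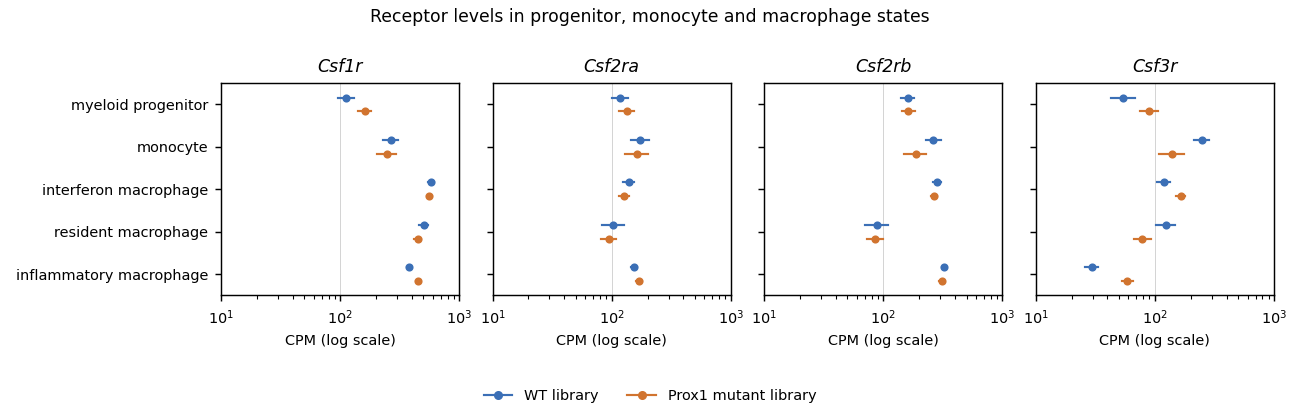
Levels of the receptor chains in the states of the macrophage lineage and in progenitors and monocytes, in CPM with 95% counting intervals, for the WT and the Prox1 mutant library. Csf1r is highest in interferon macrophages, at 577 and 559 CPM, and Csf2rb is lowest in resident macrophages, at 88.3 and 85.6 CPM.

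The plot of receptors by lineage also shows the GM-CSF receptor alpha chain Csf2ra. It stood at nearly 1 level in macrophages, neutrophils and the progenitor or monocyte class. Macrophages held 144 (137 to 151) and 144 (138 to 151) CPM, neutrophils 128 (115 to 143) and 143 (131 to 157) CPM, and the progenitor or monocyte class 133 (119 to 148) and 138 (123 to 153) CPM. None of these pairs differed beyond counting error in either library: macrophages were 1.12 (0.993 to 1.27) and 1.01 (0.910 to 1.11) times the neutrophils. After thinning, 23.4% and 23.8% of macrophages had a UMI, against 0.671% and 0.969% of erythroid cells. Endothelial cells, fibroblasts and mural cells held 3.15 to 7.53 CPM, a range that overlaps the erythroid 5.69 and 3.15 CPM. The log2 ratio in macrophages was 0.0030 (-0.093 to 0.099), and -0.22 relative to the median of all genes. Within macrophages, inflammatory cells held more than the others, 154 against 121 CPM in the WT library and 171 against 117 CPM in the mutant library. The neutrophil clusters ran from 125 to 134 CPM in the WT library and from 126 to 174 CPM in the mutant library. In the dendritic cluster a Csf2ra UMI was found in 2 of 20 WT and 7 of 24 mutant cells. In the basophil cluster it was found in 3 of 12 WT and 1 of 17 mutant cells.

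Csf2ra lies on chromosome 19 (chr19:61223957-61228429, minus strand). Its promoter is shown because its level was shared by macrophages, neutrophils and the progenitor or monocyte class and because it holds the core letters of the motif of PU.1, the transcription factor encoded by Spi1 that is active in macrophages and neutrophils. The core searched was GAGGAA on both strands, which 7639 of 32851 mouse promoter windows of 250 bases in RefSeq (GRCm38.p6), 23.3%, also hold. Capitals mark the core in the 250 bases before the RefSeq start of Csf2ra (chr19:61228419-61228668, minus strand), where its matches begin 14 and 8 bases before the start, and in a 30-base window of Csf3r (chr4:126024561-126024590, plus strand), where it begins 86 bases before the RefSeq start. The GENCODE model of Csf2ra starts slightly upstream of the RefSeq start, inside the first of these matches, so the second lies within that model. For Csf3r the GENCODE annotation places a start 109 bases further upstream, so the window lies inside that transcript model.
Csf2ra: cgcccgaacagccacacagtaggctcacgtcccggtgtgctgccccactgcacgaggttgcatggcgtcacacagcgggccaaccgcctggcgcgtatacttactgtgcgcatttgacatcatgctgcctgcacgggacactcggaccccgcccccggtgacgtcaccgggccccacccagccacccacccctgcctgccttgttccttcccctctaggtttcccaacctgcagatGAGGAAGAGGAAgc
Csf3r: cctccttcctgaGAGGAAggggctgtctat
The windows of Csf1 and Csf2 hold no such letters. Promoters of Csf1r, Csf2rb, Il34 and Csf3 were not in the reference used, so these members were not searched. A match is a description of the letters and shows no binding.

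The common beta chain Csf2rb (chr15:78325752-78353847, plus strand) reached further than the alpha chain. Macrophages held 292 (283 to 302) CPM in the WT library and 254 (245 to 263) CPM in the mutant library (log2 ratio -0.20, -0.27 to -0.13, and -0.42 relative to the median of all genes). Progenitors or monocytes held 200.2 (183 to 219) and 191 (174 to 209) CPM and neutrophils 176 (159.7 to 193) and 186 (172 to 202) CPM, and these lineages did not differ from each other beyond counting error. The basophil cluster, a type that responds to interleukin-3, held 365 (273 to 477) and 728 (559.6 to 932) CPM (log2 ratio 0.996, 0.45 to 1.55), a direction that turned (log2 ratio -0.23) when barcodes with 200 genes and under 20% mitochondrial UMIs were admitted. Both chains of the GM-CSF receptor were read in the same cell in 370 of 509 WT and 377 of 548 mutant macrophages, and in 96 of 312 and 154 of 330 neutrophils. After thinning the order of the libraries turned in neutrophils, with both chains in 24 of 265 (9.06%, 5.89 to 13.2) in the WT library and 17 of 293 (5.80%, 3.42 to 9.13) in the mutant library, and these intervals overlapped.

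The myeloid states spread Csf2rb more widely than Csf2ra. In neutrophils it ran from 77.0 (63.7 to 92.3) and 116 (101 to 131) CPM in the immature cells through 293 (250.3 to 340.4) and 219 (189.9 to 251) CPM in the Retnlg-led cells to 397 (336 to 466) and 511 (440.2 to 589.9) CPM in the Il1f9-led cells. Inflammatory macrophages held 325 (313 to 338) and 308 (294 to 322) CPM and interferon macrophages 281 (260.3 to 304) and 266 (249 to 284) CPM. Resident macrophages were far lower, at 88.3 (70.3 to 109) and 85.6 (72.8 to 99.9) CPM, although their Csf1r level was above that of inflammatory macrophages in the WT library and level with it in the mutant library. The plot of macrophage states shows the lower Csf2rb of resident cells in both libraries.

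Endothelial cells also carried Csf2rb, with little Csf2ra beside it. Over the lineage it stood at 82.2 (75.8 to 88.9) CPM in the WT library and 97.2 (89.1 to 106) CPM in the mutant library, above the erythroid 8.69 and 3.00 CPM. Venous cells, the class marked by the leukocyte adhesion genes Selp and Sele, held 162 (147 to 178) and 194 (174 to 216) CPM, with a UMI in 104 of 165 and 56 of 96 cells and, after thinning, in 25.0% and 25.0%. Arterial cells held 58.3 and 37.6 CPM, so that venous cells were 2.78 (2.21 to 3.53) and 5.16 (3.74 to 7.30) times the arterial level. Capillary cells held 25.0 and 58.1 CPM, and leaving out the cell with most UMIs in each library, 20 in the WT and 54 in the mutant library, gave 18.6 and 29.1 CPM. The summed level of the macrophage markers in venous cells was 473 and 368 CPM, against 4258 and 3453 CPM in inflammatory macrophages, and its part in the Csf2rb level was not tested.

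Csf2rb has a near-identical neighbour, Csf2rb2, which encodes an interleukin-3 receptor beta chain of the mouse and lies 20031 bases away on the same chromosome (chr15:78282507-78305721, minus strand). The coding sequences of the longest models were identical at 2505 of 2631 aligned bases (95.2%), so reads from the coding part can be split or lost between the genes. Of the 4811 windows of 90 bases along Csf2rb, 394 (8.19%) also occurred in Csf2rb2, and of the 911 windows in its last 1000 bases, where 3' libraries mostly read, 0 did. A stretch of 60 coding bases (coding bases 2578 to 2637) shows how close the genes are, with capitals at the 5 bases that differ.
Csf2rb: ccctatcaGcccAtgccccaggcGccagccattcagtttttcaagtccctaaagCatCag
Csf2rb2: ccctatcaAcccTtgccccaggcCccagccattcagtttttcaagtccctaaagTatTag
Csf2rb2 was read in the same lineages, at 72.7 (68.0 to 77.7) and 62.6 (58.3 to 67.2) CPM in macrophages and 75.0 (64.9 to 86.2) and 49.2 (39.4 to 60.8) CPM in venous endothelium. In neutrophils it was low, at 16.2 and 12.998 CPM, where Csf2rb was not.

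Csf3r (chr4:126024550-126044440, plus strand), the G-CSF receptor, marked neutrophils. They held 482 (455 to 510.2) CPM in the WT library and 581 (556 to 607) CPM in the mutant library (log2 ratio 0.27, 0.16 to 0.37) and gave 43.8% and 40.1% of its transcripts. With the unnamed cells left out these shares were 51.3% and 53.1%, so their order between libraries turned. A UMI was found in 253 of 312 WT and 287 of 330 mutant neutrophils, and after thinning in 60% and 61.8%, against 1.01% and 1.13% of erythroid cells. The thinned shares of the libraries were close, while the CPM was higher in the mutant. The more mature clusters held more: the immature cells held 139.6 (121 to 159.7) and 202 (184 to 223) CPM, the Retnlg-led cells 908 (832 to 989) and 1133 (1065 to 1203) CPM and the Il1f9-led cells 1218 (1108 to 1335) and 1354 (1237 to 1479) CPM. Retnlg-led cells stood at 6.50 (5.53 to 7.66) and 5.59 (4.99 to 6.28) times the immature cells, and the Il1f9-led cells 1.34 (1.18 to 1.52) and 1.196 (1.07 to 1.33) times the Retnlg-led cells.

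Outside neutrophils, Csf3r in macrophages was the only member past the fold in that lineage, 1 of 6 tested against the background of 25.9%. It stood at 55.2 (51.1 to 59.5) CPM in the WT library and 94.6 (89.2 to 100.1) CPM in the mutant library (log2 ratio 0.78, 0.64 to 0.92). Inflammatory macrophages went from 30.1 (26.5 to 34.0) to 58.0 (52.2 to 64.3) CPM and the other macrophages from 109 (98.7 to 119.7) to 132 (123 to 141) CPM. Over the same cells the summed level of the 8 neutrophil markers went from 887 to 1748 CPM and that of the 7 immature neutrophil markers from 106 to 349.5 CPM, with every marker of both lists detected, and their part in the Csf3r difference was not tested. Relative to the median of all genes the lineage ratio was 0.56, and with every cell weighted equally 0.53, both of which fall short of the 1.5-fold change. Not every state followed: resident macrophages went from 123 (102 to 148) to 78.6 (66.4 to 92.4) CPM and monocytes, a state of their own in that clustering, from 248 (214 to 286) to 139 (108 to 177) CPM. Neutrophils were 8.73 (7.94 to 9.61) and 6.14 (5.71 to 6.61) times the macrophages.

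Receptor transcripts were also read in some lymphoid and dendritic clusters, at low cell numbers. T or NK cells held 104 (75.8 to 140.0) and 54.3 (38.6 to 74.2) CPM of Csf1r and 118 (87.9 to 156) and 50.1 (35.1 to 69.4) CPM of Csf2rb, from 7 of 48 and 8 of 89 cells for Csf1r. The macrophage markers summed to 1747 and 919 CPM in that cluster, and their part in these levels was not tested. The dendritic cluster, 20 WT and 24 mutant cells, held 225 (156 to 314) and 198 (145 to 265) CPM of Csf2rb, with a UMI in 15 of 20 and 16 of 24 cells. It had 0 Csf1r and 0 Csf3r UMIs in the WT library, and 22 and 18 in the mutant library. In B cells each receptor chain was higher in the mutant library, and 1 mutant cell held 27 of the 61 Csf1r UMIs.

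The count of members past the fold was set against the share of all genes past it in the same lineage. In neutrophils 0 of 5 members tested were past the fold against 26% of all genes tested there, and in progenitors or monocytes 2 of 6 against 27.4%, both lower in the mutant library (Csf1 at 18.0 and 9.55 CPM, and Csf3). In endothelial cells 2 of 7 were past it against 19.5%, in fibroblasts 3 of 6 against 16.4%, in mural cells 2 of 5 against 21.3% and in Schwann cells 1 of 4 against 30.7%. Most of these stromal calls were receptor genes near the erythroid background. In endothelial cells Csf1r went from 3.69 to 9.68 CPM and Csf3r from 4.87 to 9.13 CPM, in fibroblasts Csf3r from 3.30 to 5.30 CPM and Csf2rb from 5.72 to 3.76 CPM, and the exception was Il34 in fibroblasts, whose ratio fell short of 1.5-fold (log2 ratio 0.33) when every cell was weighted equally. In mural cells the 2 calls were Csf2rb, from 6.76 to 4.17 CPM, and Csf3r, from 7.21 to 3.57 CPM, and in Schwann cells the call was Csf2ra, from 12.3 to 7.75 CPM. The plot of ratios holds only members with at least 100 UMIs in a lineage over both libraries. Of the stromal calls it therefore shows Il34 in fibroblasts alone.

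**Figure D5:**
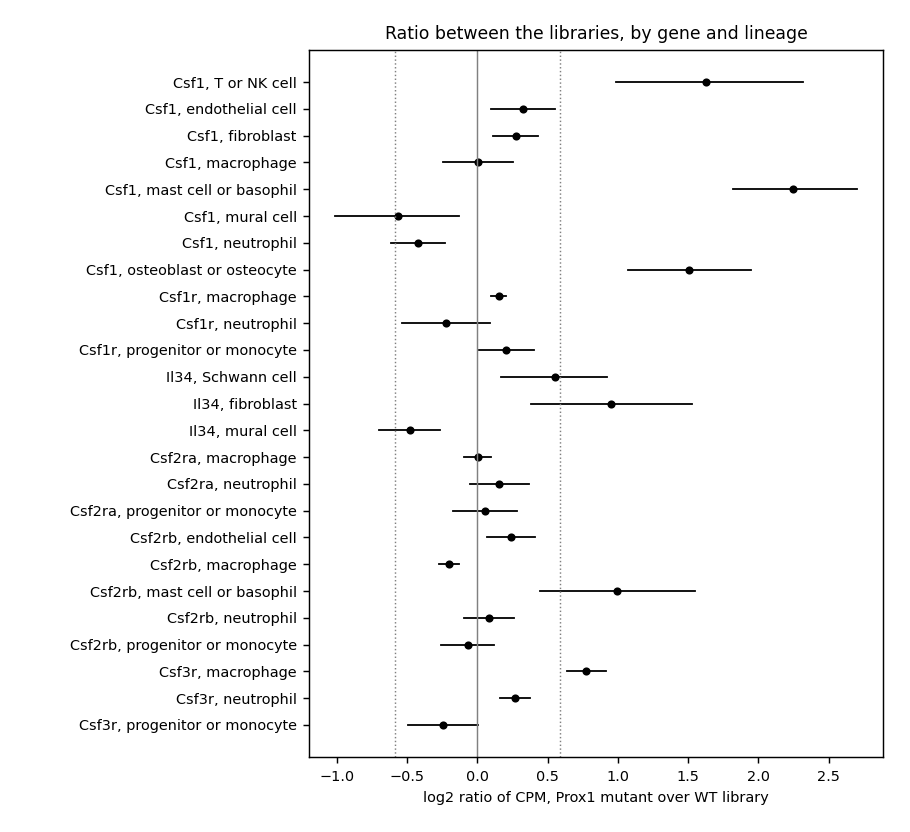
Log2 ratio of the Prox1 mutant over the WT library for each member in each lineage where it had at least 100 UMIs over both libraries. The 95% intervals cover counting error only, and the 1.5-fold limits are drawn as lines. Most ratios lie between the limits. Outside them, with intervals clear of 0, lies Csf1 in the basophil cluster (2.25), T or NK cells (1.62) and osteoblasts or osteocytes (1.504). So do Csf2rb in the basophil cluster (0.996), Il34 in fibroblasts (0.95) and Csf3r in macrophages (0.78).

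The genes around these receptors were read from lists of the pathway. Of the 14 signalling and feedback genes tested in macrophages, 1 was past the fold upwards and 2 downwards, where 25.9% of all genes were past it. Jak2, the kinase that the GM-CSF receptor uses, went from 116 to 177 CPM (log2 ratio 0.60, 0.51 to 0.70). Inflammatory macrophages went from 112 to 218 CPM (log2 ratio 0.96, 0.84 to 1.08). The other macrophages, at 126 and 135 CPM, did not differ between libraries beyond counting error (log2 ratio 0.10, -0.061 to 0.27). Cish and Socs2, feedback inhibitors that Stat5 induces, went from 17.2 (15.0 to 19.7) to 5.49 (4.26 to 6.96) CPM and from 18.9 (16.6 to 21.5) to 6.95 (5.56 to 8.58) CPM. In neutrophils, against 26% of all genes past the fold, 4 of 13 were lower in the mutant, and the feedback inhibitors among them were Cish (8.10 to 1.48 CPM), Socs1 (46.6 to 20.1 CPM) and Socs3 (79.0 to 48.2 CPM), the inhibitor of G-CSF signalling. Jak2 was the remaining one there, going from 78.2 to 51.7 CPM. The mix of the neutrophil clusters differed between libraries, and its part in these neutrophil values was not tested. In progenitors or monocytes Socs3 went from 326 (304 to 349.8) to 104 (91.3 to 117) CPM, while Stat5a and Inpp5d were higher in the mutant. The mix of states in that class differed between libraries, and its part in these values was not tested. Stat5a was also past the fold upwards in neutrophils, but on 9 WT and 19 mutant UMIs and with an interval that held 0 (0.62 (-0.59 to 1.95) on the log2 scale).

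Transcription factors of the myeloid lines were read as a list of 8. In macrophages Maf (82.3 to 199 CPM) and Mitf (539 to 917 CPM), factors of mature macrophages and of osteoclasts, were past the fold upwards and none downwards. The share of all genes past it there was 25.9%. In inflammatory macrophages Maf went from 27.7 to 79.5 CPM and in the others from 199 to 321 CPM. In resident macrophages it went from 453 to 580 CPM, short of 1.5-fold, as did Mitf, from 550 to 656 CPM. Inflammatory macrophages were a smaller part of the mutant than of the WT macrophages. The part of that mix in these values was not tested. In neutrophils 2 were past it upwards and 1 downwards, and in progenitors or monocytes 3 upwards and 2 downwards, where 26% and 27.4% of all genes were past it. Cebpb, a factor of emergency granulocyte production, was lower in mutant neutrophils, at 1349 (1304 to 1396) and 749 (719.7 to 778) CPM, and in mutant progenitors or monocytes, at 1416 (1369 to 1464) and 702 (669 to 737) CPM. The mix of progenitors, monocytes and cells of the dendritic state in the latter class differed between libraries. So did the mix of the neutrophil clusters. The part of either mix in the Cebpb values was not tested. Of the 6 genes known to respond to GM-CSF that were tested in macrophages, 2 were past the fold in each direction, against 25.9% of all genes. Pparg (10.98 to 30.0 CPM) and Irf4 (1.64 to 5.09 CPM) were higher, and Cish and the chemokine Ccl22 (3.85 to 0.727 CPM) lower. A single WT cell held 38 of the 47 Ccl22 UMIs. Pparg went from 4.45 to 8.31 CPM in inflammatory and from 24.9 to 52.3 CPM in the other macrophages. In resident macrophages it was 70.2 and 79.7 CPM, with a log2 interval that held 0 (-0.24 to 0.62). The part of the mix of macrophage states in the Pparg call was not tested. The chemokine Ccl17 in progenitors or monocytes rested on 1 cell in each library, with all 155 WT and all 10 mutant UMIs. The list therefore did not move one way. In neutrophils 1 of 5 tested was past the fold upwards and 2 downwards, and in progenitors or monocytes 3 of 7 upwards and 1 downwards. The shares of all genes past it there were 26% and 27.4%. Some calls were thin. Pparg in neutrophils had 7 and 20 UMIs and a log2 interval that held 0 (-0.24 to 2.54). For Irf4 in neutrophils 1 cell held 14 of 17 WT UMIs. For Ccl22 in progenitors or monocytes 1 cell held all 6 WT UMIs, and the interval held 0 (-0.10 to 2.999). In the dendritic state (13 WT and 51 mutant cells) Pparg was 238 and 337 CPM. It was 14.1 and 11.7 CPM in progenitors and 6.50 and 8.33 CPM in monocytes. That state held 6 and 15 Ccl22 UMIs, as many as the whole progenitor or monocyte class. Irf4 was 27.1 and 23.1 CPM there and 1.34 and 7.60 CPM in progenitors. The part of the mix of states in these calls was not tested.

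Of the genes that share or modify these receptors, Tyrobp and Trem2, an adaptor and receptor pair of macrophages, had 56.3% and 83.2% of their UMIs in macrophages, and of the 4 receptor partners tested in that lineage 0 were past the fold. The macrophage calls of the pathway genes depend on the scaling, since the median log2 ratio of all genes there was 0.22. Relative to that median Jak2 (log2 ratio 0.60) and Mitf (0.77) fall short of 1.5-fold, while the receptor partners Tyrobp (-0.47), Trem2 (-0.45) and Sdc1 (-0.39) and the factor Cebpb (-0.52) would be past it downwards. Trem2 was lower in mutant progenitors or monocytes, at 42.1 and 24.5 CPM, a class whose mix of states differed between libraries. Of the beta chain family, Csf2rb2 was past the fold upwards in progenitors or monocytes (11.4 to 21.6 CPM), and 0 of 2 tested were past it in macrophages and in neutrophils. The shedding proteases Adam10 and Adam17, which release the ectodomains of cytokines and receptors from the cell surface, were past the fold in 0 of 2 cases in macrophages, neutrophils and progenitors or monocytes alike. In these lineages 25.9%, 26% and 27.4% of all genes were past it. Il3, a ligand of the beta chains, had 0 UMIs in both libraries together, and Il3ra, its receptor alpha chain, was highest in the basophil cluster at 117 (68.2 to 187) and 173 (97.0 to 286) CPM.

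The genes whose levels most resembled each member were found over 50 profiles, 25 classes in each library, by Pearson correlation of log2 levels among genes with at least 200 UMIs, as a description only, since classes of a library share depth and free RNA. Csf1r was closest to Clec4a3, Msr1 and Cd300c2 (r of 0.94 for each), genes of myeloid surface receptors. Csf3r was closest to Trem1 (0.96), Slfn1 (0.94) and Sirpb1b (0.94), and Csf2ra to Pira2 (0.93) and Ncf4 (0.92). For Csf2rb the list held its neighbour Csf2rb2 (0.89) after Srgn (0.91) and Neurl3 (0.89). Il34 was closest to Armc2 (0.92), Arhgef17 (0.91) and Egflam (0.88). Csf1, spread over stroma and leukocytes, had no close partner, with Prkd3 and Jak1 at 0.69 and Fam129a at 0.67.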

How the data were processed

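Single-cell 3' libraries (10x Genomics) were made from digested TMJs. The authors' deposited matrices hold raw UMI counts per gene and barcode. Per the submitters' processing notes they were made with Cell Ranger 7.0.1 on mm10. The labels and the study's methods name different versions of the kit, and how many animals made up each library was not given in the sources used here. One library was deposited per condition (WT and Prox1 mutant, both after CFA).

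Kept barcodes had 500 genes or more and less than 10% mitochondrial UMIs (4352 of 5709 WT and 5757 of 7846 mutant barcodes; 48366846 and 54330221 UMIs). The 8 members were removed before clustering. Seurat 5.3.0 with sctransform 0.4.2 in R 4.3.3 integrated the libraries by anchors (3000 features, 200 principal components, resolution 1.5). A cluster was named from marker lists when at least 3 markers were raised (2 times the other cells and in at least 10% of cells, mean log2 difference of at least 1). It stayed unnamed if its 10 leading genes held more markers of another lineage, or if over 90% of its cells came from 1 library. The same held if most markers of an unrelated lineage were raised, or if it was shallow with no own marker leading. By these last rules a cluster with 7 of 7 immature neutrophil markers raised (49 WT and 241 mutant cells) and another with 4 of 7 (22 and 84 cells) were not counted as neutrophils. These naming rules were settled with the clusters in view, and the members and lists were chosen with earlier results of these data known. Myeloid states came from a second clustering (30 components, resolution 0.5) of the macrophage, progenitor or monocyte and dendritic lineages together. Doublet calls by Scrublet in scanpy 1.11.5, at 0.008 of cells per 1000 cells loaded, were kept and removed as an alternative.

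UMIs were summed by class and library and divided by the class total (CPM, per 1000000 UMIs), in Python 3.11.15 with numpy 2.4.6 and scipy 1.17.1. Intervals (95%) are exact Poisson for CPM, Clopper-Pearson for shares and exact conditional binomial for ratios, and cover counting error only. A gene past the fold differed at least 1.5 times, among genes with at least 20 UMIs in the lineage over both libraries. Every member was described, and other genes came from the pathway lists when past the fold or with most of their UMIs in 1 lineage. Genomic positions and transcripts came from the GENCODE annotation of GRCm38. The ratio interval, the count of genes past the fold and the naming rule were tested on simulated counts, and the other computations were not. The alternatives were looser and stricter cell filters, no integration, 30 components, resolution 0.5, the members kept in the clustering, doublets removed, cells weighted equally, scaling by the median ratio of the class, other thinning depths, other UMI minimums and shares over the named classes alone. Leaving out the cell with most UMIs and naming the clusters mostly from 1 library were added after the data were seen.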

Additional observations from a re-analysis of the deposited data

Results flagged for a closer look

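Of 25 ratios of mutant over WT that were looked at, 13 had an interval clear of 1 and belonged to a member with such ratios in opposite directions in different lineages. The rule first also asked for a 1.5-fold change in both directions, which no member met among these ratios, and that demand was dropped with the values in view. The difference between lineages was not tested, since each condition had 1 library. How many of all genes meet the same rule was not counted, so the number flagged is no result about these members.

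For Csf1 the log2 ratio was 2.25 in the basophil cluster, 1.62 in T or NK cells, 1.504 in osteoblasts or osteocytes, 0.33 in endothelial cells and 0.27 in fibroblasts, against -0.57 in mural cells and -0.42 in neutrophils. The first 3 of these rest on clusters of 12 to 89 cells in a library, and that of T or NK cells was 0.53 with every cell weighted equally and 2.68 without the cell with most UMIs. The neutrophil ratio does not hold within each neutrophil cluster. The Il1f9-led cells, with 291 of 433 WT and 379 of 443 mutant Csf1 UMIs of the lineage, were higher in the mutant library. Under the stricter filter the neutrophil ratio was -0.096. Il34, the other ligand of the same receptor, had log2 ratios of 0.95 in fibroblasts and 0.55 in Schwann cells, against -0.48 in mural cells. For the beta chain Csf2rb the log2 ratio was 0.996 in the basophil cluster and 0.24 in endothelial cells, against -0.20 in macrophages. Within inflammatory, interferon and resident macrophages the Csf2rb intervals of the libraries overlapped. Inflammatory macrophages were 254 of 509 WT and 194 of 548 mutant macrophages, and the part of that mix was not tested.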

How the results depend on the processing

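Of 407 values recomputed under an alternative, 331 stayed within their own interval (counts of genes, within 1.5 times), 72 moved further, and 4 ratios whose interval had been clear of 0 changed sign. Ratios whose interval held 0 changed sign more often: Csf1 and Csf2ra in macrophages kept theirs under 6 and 4 of 11 alternatives. No paired analysis was possible because each condition had 1 library. The Csf1 ratio of neutrophils over fibroblasts (log2 1.06 in the WT and 0.36 in the mutant library) moved beyond its interval under 5 of 10 alternatives in each library: it was 0.71 and 0.072 when 200 genes and up to 20% mitochondrial UMIs sufficed, 0.30 and -0.11 when 1000 genes and less than 5% were required, 0.75 and -0.063 without integration, 0.76 and 0.072 at resolution 0.5, and 2.25 and 1.67 with cells weighted equally. The cause was not tested. Counting only genes with at least 100 UMIs lowered the share of genes past 1.5-fold from 26% to 16.96% in neutrophils, 19.5% to 11.1% in endothelial cells, 16.4% to 8.94% in fibroblasts, 21.3% to 11.3% in mural cells and 30.7% to 20.3% in Schwann cells, and with no minimum it was 24.6% in fibroblasts and 32.1% in mural cells. The stricter filter, which leaves fewer of the shallow neutrophils, also moved the mutant over WT ratio in neutrophils to -0.096 for Csf1 and 0.43 for Csf3r, the Il34 ratio of mural over Schwann cells to 1.77 and 0.78, and the Csf3r ratio of neutrophils over macrophages to 2.82 and 2.50. The looser filter turned the Csf2rb ratio in the basophil cluster to -0.23. Shares of transcripts taken over the named classes alone moved beyond their interval in 8 cases and stayed within it in 4.

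Without integration, Csf1r in macrophages was 0.078, Csf1r of macrophages over neutrophils in the WT library 2.96, and Csf3r of neutrophils over macrophages 2.68 and 2.12. With doublets removed, Csf1r of macrophages over neutrophils was 2.45 and 3.41. With cells weighted equally, the ratios in macrophages were 0.035 for Csf1r, -0.093 for Csf2ra and -0.10 for Csf2rb, that of Csf3r in neutrophils 0.084, and the 1.5-fold calls were lost for Csf3r in macrophages (0.53), Csf1 in T or NK cells (0.53) and Il34 in fibroblasts (0.33). That weighting also gave Csf3r of neutrophils over macrophages 3.56 and 3.11, and Csf2rb of macrophages over endothelial cells 2.55 and 1.91. Scaling by the median ratio of the class gave -0.066 for Csf1r, -0.22 for Csf2ra and -0.42 for Csf2rb in macrophages. Depth limits Csf2 and Csf3 most, and with 1 library per condition no value here separates the genotype from the library.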

Other observations

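Of the 10 other cytokines and receptors of blood cell formation, 8 were tested in macrophages (4 past the fold upwards, 1 downwards), 4 in neutrophils (1 and 0) and 6 in progenitors or monocytes (5 and 1), where 25.9%, 26% and 27.4% of all genes were past the fold. In progenitors or monocytes the upward calls of Flt3l and Tnfrsf11a had intervals that held 0. Kit stood at 54.3 and 126 CPM in the dendritic state (13 WT and 51 mutant cells) and at 13.4 and 19.3 CPM in progenitors. For Flt3 the values were 81.4 and 147 CPM and 33.5 and 29.0 CPM. The part of the mix of states in the calls was not tested. For Tnfsf11, the downward call in macrophages, 1 WT cell held 15 of 19 UMIs. Kitl, the ligand of the stem cell receptor Kit, had 81.1% of its 17847 UMIs in endothelial cells, at 1143 (1119 to 1167) CPM in the WT and 1058 (1031 to 1086) CPM in the mutant library. Epor, the erythropoietin receptor, had 74.4% of its 735 UMIs in erythroid cells, at 54.8 (47.2 to 63.4) and 54.6 (49.2 to 60.5) CPM. Tnfsf11, which encodes RANKL, the osteoclast factor that acts together with CSF1, had the largest share of its 868 UMIs in fibroblasts (39.4%) and its highest level in T or NK cells, at 97.2 (69.7 to 132) and 90.5 (69.8 to 115) CPM. Its receptor Tnfrsf11a went from 31.4 (28.3 to 34.7) to 47.2 (43.5 to 51.2) CPM in macrophages, a change that falls short of 1.5-fold relative to the median of all genes. It was 19.7 and 23.2 CPM in inflammatory and 56.2 and 71.9 CPM in the other macrophages. The part of the mix of these states was not tested. Flt3, a receptor of dendritic cell development, was highest in dendritic cells, at 469 (366 to 592) and 256 (194 to 330.4) CPM.

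Ptprz1, a second receptor described for interleukin-34, was highest in osteoblasts or osteocytes, at 216 (179 to 258) CPM in the WT and 918 (839.5 to 1002) CPM in the mutant library. That cluster, 28 cells in each library, also had a higher Csf1 level in the mutant library, where 3 cells held 50% of the Csf1 UMIs.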
